A study of Mus musculus with 6 samples.

Results

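The genes described here are 10 genes of major histocompatibility complex (MHC) class I antigen presentation: B2m, H2-K1, H2-D1, Tap1, Tap2, Tapbp, Psmb8, Psmb9, Psmb10 and Nlrc5. They were chosen by symbol, and all 10 were found among the 17558 genes of the deposited table. RNA was sequenced in 6 libraries of C2C12 cells, an immortalized mouse myoblast line that forms myotubes when serum is reduced. All cells had spent 48 h in differentiation medium with horse serum and an insulin, transferrin and selenium supplement, and all carried a stably expressed short hairpin RNA. The control group carried a scrambled hairpin (shScr), and the others a hairpin against pyruvate kinase, aimed at its Pkm1 isoform (shPkm1) or its Pkm2 isoform (shPkm2). Each of the 3 groups had 2 libraries. The labels give the genotypes as WT, Pkm1 knockdown and Pkm2 knockdown, and do not say whether a stable line was a clone or a pool, or whether the libraries of a group came from separate cultures. The p-values therefore measure the spread between these libraries, which may be technical.

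MHC class I molecules show fragments of a cell's own proteins at its surface, where cytotoxic T cells inspect them. Proteasomes cut proteins into peptides, the TAP transporter carries these into the endoplasmic reticulum, and a loading complex fits them into a heavy chain paired with beta-2-microglobulin. Most cells make the machinery at a modest level, and interferon-gamma raises it. Skeletal muscle fibres are known for little class I at their surface, which rises in inflammatory muscle disease.

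Libraries held 18216896 to 19796036 estimated counts, and the libraries of a group correlated across genes at r = 0.9882 to 0.9943 in log2 CPM. CPM are counts scaled to library size and to a composition factor (TMM). The control pair differed most, with a chi-square per degree of freedom of 31 against 6.01 for shPkm1 and 6.67 for the libraries labelled shPkm2. As a check of the labels, the Pkm1 isoform fell from 546 and 589 TPM (transcript abundance scaled to length and library) in shScr to 243 and 218 in shPkm1. It was also at 254 in both libraries labelled shPkm2. The Pkm2 isoform stood at 1073 and 1517 TPM in shScr and at 2699.7 and 2629.5 TPM in the libraries labelled shPkm2. The isoform that the shPkm2 label names was thus not lower, and that group is called by its label throughout. The 10 muscle markers examined, Myog and Ckm among them, summed to 23350.3 to 30107 TPM in shScr. They summed to 11715 to 12649.7 TPM in shPkm1 and to 989.7 to 1062 TPM in the shPkm2-labelled libraries. All 10 muscle markers were lower in both comparisons with shScr, so differentiation markers moved with every group difference below, and their part in it was not tested. Of 15 markers of immune and endothelial cells 10 were analysed, and they summed to 4.04 to 7.27 TPM in shScr, 16.4 to 17.5 in shPkm1 and 17.7 to 19.4 in the shPkm2-labelled libraries. Most of each sum was Cd14, at 2.51 and 4.59 TPM in shScr, 11.2 and 11.19 in shPkm1 and 14.3 and 15.14 in the shPkm2-labelled libraries. Of the 5 markers that passed the filter on low counts, 1 was lower and 4 were higher in shPkm1, and 2 were lower and 2 higher in the shPkm2-labelled libraries. The myeloid marker Itgam was lower in both, at 30 and 22 counts in shScr, 7 and 1 in shPkm1 and 0 in both shPkm2-labelled libraries. Other myeloid markers differed from it. Cd68 was higher in both, at 9 and 21 counts in shScr, 39 and 31 in shPkm1 and 39 and 49 in the shPkm2-labelled libraries. Csf1r and Lyz2 were higher in shPkm1, and Csf1r was lower in the shPkm2-labelled libraries. The part of these markers in the results was not tested. In bulk RNA, fewer cells of a type and less RNA per cell cannot be told apart.

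All 10 class I pathway genes were lower than in shScr in shPkm1, and all 10 were lower in the shPkm2-labelled libraries, in edgeR's quasi-likelihood test with an adjusted p under 0.05. Scaled by library totals alone, without a composition factor, and by limma on log2(TPM + 0.1) and log2(TPM + 1), 9 of the 10 were called in shPkm1, Tap2 being lost. Of all 12643 genes tested, 31.4% were called lower and 31.8% higher in shPkm1, and 34.2% lower and 33.9% higher in the shPkm2-labelled libraries. The median log2 fold change of the 10 genes was -1.38 in shPkm1 and -2.08 in the shPkm2-labelled libraries, against 0.00 and 0.01 over all genes tested. A fall of at least 2-fold was called for 6 of the 10 genes in shPkm1 and for all 10 in the shPkm2-labelled libraries, against 9.41% and 13.7% of all genes. The medians were nearer to 0 under other scalings, at -1.19 and -1.76 without a composition factor, -0.92 and -1.48 on log2(TPM + 0.1), and -0.63 and -1.44 on log2(TPM + 1). These comparisons share the control libraries. In the direct comparison, which uses no control library for the fold change, 8 of the 10 genes were lower in the shPkm2-labelled libraries than in shPkm1, none was higher, and 27.3% of all genes were lower and 25.7% higher. The median there was -0.95, against 0.00 over all genes, and 4 of the 10 were at least 2-fold lower, against 11.5% of all genes.

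**Figure D1:**
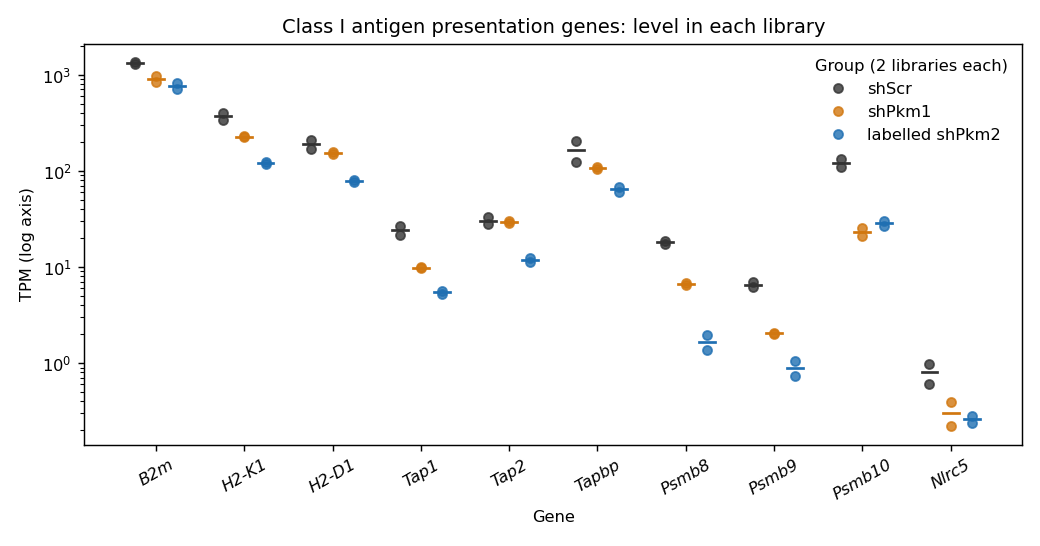
Level of each gene in TPM on a log axis, with 1 point per library (2 per group) and a short bar at the group mean. B2m lies highest in every group, at 699.8 to 1346 TPM, and Nlrc5 lowest, at 0.22 to 0.99 TPM.

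The surface molecule itself consists of a heavy chain, encoded by H2-K1 and H2-D1, and of beta-2-microglobulin, encoded by B2m on chromosome 2 (chr2:122147687-122153082, GRCm38). B2m stood at 1298 and 1346 TPM in shScr, 966 and 838 in shPkm1 and 699.8 and 809 in the shPkm2-labelled libraries. It was the most abundant of the 10 transcripts in every library, and the control libraries lay above the other 4. Relative to shScr its log2 value changed in shPkm1 by -0.94 (SE 0.123, adjusted p 2.2e-05), and with the shPkm2 label by -1.26 (SE 0.124, adjusted p 1.09e-06), by edgeR. The shPkm2-labelled libraries were lower than shPkm1, with a log2 difference of -0.32 (SE 0.122, adjusted p 0.0424). That call was lost without shPkm1 replicate 1 (-0.26, adjusted p 0.23), without shPkm1 replicate 2 (-0.38, adjusted p 0.0864) and without shPkm2 replicate 1 (-0.19, adjusted p 0.369). It was also lost without a composition factor (-0.19, adjusted p 0.192), with the replicate block (adjusted p 0.0608) and on log2(TPM + 1) (-0.26, adjusted p 0.0821).

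H2-K1 lies on the minus strand of chromosome 17 (chr17:33996012-34000619) and H2-D1 on the plus strand of the same chromosome (chr17:35263094-35267497). H2-K1 stood at 336 and 398 TPM in shScr, 226 and 227 in shPkm1 and 118 and 124 in the shPkm2-labelled libraries. The 3 groups formed separate steps without overlap. Relative to shScr its log2 value changed in shPkm1 by -1.08 (SE 0.101, adjusted p 1.23e-06), and with the shPkm2 label by -2.05 (SE 0.105, adjusted p 1.71e-09). H2-D1 stood at 170.4 and 211 TPM in shScr, 148 and 157 in shPkm1 and 79.3 and 77.2 in the shPkm2-labelled libraries. It too formed steps, changing in shPkm1 by -0.70 (SE 0.101, adjusted p 4.91e-05), and with the shPkm2 label by -1.73 (SE 0.104, adjusted p 8.21e-09). Between the Pkm hairpin groups, the log2 difference of H2-K1 was -0.98 (adjusted p 3.51e-06) and that of H2-D1 -1.03 (adjusted p 2.21e-06).

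How reads were divided among the heavy chain genes is uncertain. The table splits H2-K1 over 13 transcripts, of which a predicted model took 76.8% of the gene's counts, while H2-D1 has a single transcript. Classical heavy chain genes are highly polymorphic and resemble each other and the other class I genes nearby. C2C12 came from a C3H mouse and the reference is the C57BL/6J genome, so the division of reads may not follow the cells' own alleles. The TPM ratio of H2-K1 to H2-D1 was 1.97 and 1.89 in shScr, 1.52 and 1.45 in shPkm1 and 1.48 and 1.60 in the shPkm2-labelled libraries. The TPM ratio of B2m to the sum of H2-K1 and H2-D1 was 2.56 and 2.21 in shScr and 2.58 and 2.18 in shPkm1. It was 3.56 and 4.03 in the shPkm2-labelled libraries, above the other 4 libraries. No test was run on these ratios.

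The promoters of the 3 genes are shown because they share an arrangement of short elements that class I regulators are known to bind. Promoter sequences from RefSeq (GRCm38.p6) were found for 8 of the 10 genes, and the 250 bases before each RefSeq start were searched on both strands. For H2-K1 the RefSeq starts used lie at positions 34000347 and 34000333, which is 272 and 286 bases inside the interval given for the gene, so its stretches lie before these starts but within that interval. The letters are those of the reference, not read from these cells. In each of B2m, H2-K1 and H2-D1, TGACG, the core of the X2 box, is followed after 20 bases by ATTGG, the reverse complement of CCAAT and the core of the Y box. This spacing was noticed after the sequences had been seen. It occurs in 30 of the 32851 windows of this length (0.091%), while TGACG alone occurs in 17.765% and CCAAT in 33.85%. Among the companion genes it also occurs in H2-M3, a non-classical heavy chain gene whose log2 fold change was 0.06 in shPkm1 (adjusted p 0.807; -0.14 without shPkm1 replicate 1) and -1.10 in the shPkm2-labelled libraries (adjusted p 0.000812). The stretches lie at chr2:122147609-122147638 (plus strand), chr17:34000359-34000388 (minus strand) and chr17:35262993-35263022 (plus strand), with the elements in capitals.
B2m: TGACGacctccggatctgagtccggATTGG
H2-K1: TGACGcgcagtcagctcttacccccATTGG
H2-D1: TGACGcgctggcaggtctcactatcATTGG
H2-K1 and H2-D1 share 23 of these 30 bases, and B2m shares 13 with H2-K1 and 12 with H2-D1.

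Further upstream, H2-K1 (chr17:34000429-34000457) and H2-D1 (chr17:35262924-35262952) hold GGGATTCCC, of the kind NF-kappa B is known to bind, next to GAANNGAAA read on the other strand, a core of sites for interferon regulatory factors. GGGATTCCC occurs in 99 of the 32851 windows (0.301%) and GAANNGAAA in 6.31%. Capitals mark both elements in the lines that follow.
H2-K1: GGGATTCCCcatctccacagTTTCACTTC
H2-D1: GGGATTCCCcatctcctcagTTTCACTTC
These stretches are identical at 28 of 29 bases. Both H2-D1 stretches lie inside an exon that GENCODE gives to H2-D1, and those of H2-K1 and B2m lie in no exon there. B2m holds another arrangement from chr2:122147548-122147638, with GAAANNGAA (7.129% of windows), the reverse complement of GGGACTTTC (0.289%) and then the X2 and Y cores, all in capitals in the next line.
B2m: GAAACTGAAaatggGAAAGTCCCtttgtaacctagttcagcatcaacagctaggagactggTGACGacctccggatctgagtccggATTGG
A match describes letters only and shows no binding.

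Peptides for class I are cut by the proteasome, whose catalytic subunits exist in pairs. Psmb8, Psmb9 and Psmb10 encode the immunoproteasome subunits that take the places of the constitutive subunits encoded by Psmb5, Psmb6 and Psmb7. Psmb8 (chr17:34198195-34201454) stood at 17.5 and 18.5 TPM in shScr, 6.53 and 6.81 in shPkm1 and 1.97 and 1.36 in the shPkm2-labelled libraries. It showed the largest fall of the 10 genes in the shPkm2-labelled libraries, where its log2 value changed by -3.89 (SE 0.211, adjusted p 3.12e-09), and changed by -1.82 (SE 0.173, adjusted p 1.32e-06) in shPkm1. The difference between the Pkm hairpin groups was -2.07 (SE 0.235, adjusted p 7.34e-06).

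Psmb9 (chr17:34182030-34187330, minus strand) was low, at 6.89 and 6.17 TPM in shScr, 2.02 and 2.05 in shPkm1 and 0.74 and 1.06 in the shPkm2-labelled libraries. The last of these rest on 6 and 9 counts. Relative to shScr its log2 value changed in shPkm1 by -2.06 (SE 0.314, adjusted p 8.22e-05), and with the shPkm2 label by -3.32 (SE 0.357, adjusted p 2.65e-06). Between the Pkm hairpin groups it was -1.25 (SE 0.43, adjusted p 0.0259). That call was lost in DESeq2 (-1.27, adjusted p 0.0808) and without shPkm1 replicate 1 (adjusted p 0.0812), shPkm1 replicate 2 (adjusted p 0.092) or shPkm2 replicate 1 (-0.99, adjusted p 0.161).

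Psmb10 (chr8:105935728-105938392, minus strand) had a different order of groups. It stood at 109.7 and 132 TPM in shScr, 20.9 and 25.4 in shPkm1 and 26.8 and 30.2 in the shPkm2-labelled libraries. It showed the largest fall of the 10 genes in shPkm1, where its log2 value changed by -2.76 (SE 0.133, adjusted p 2.81e-09), and changed by -2.50 (SE 0.13, adjusted p 2.1e-09) in the shPkm2-labelled libraries. The Pkm hairpin groups overlapped in CPM but not in TPM. The difference between them was 0.25 with a 95% interval from -0.04 to 0.55 (adjusted p 0.14). With a library left out it ranged from 0.08 (adjusted p 0.724, without shPkm1 replicate 1) to 0.44 (adjusted p 0.0503, without shPkm1 replicate 2), and no call was made. Without a composition factor it was 0.38 and past the threshold (adjusted p 0.0335).

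**Figure D2:**
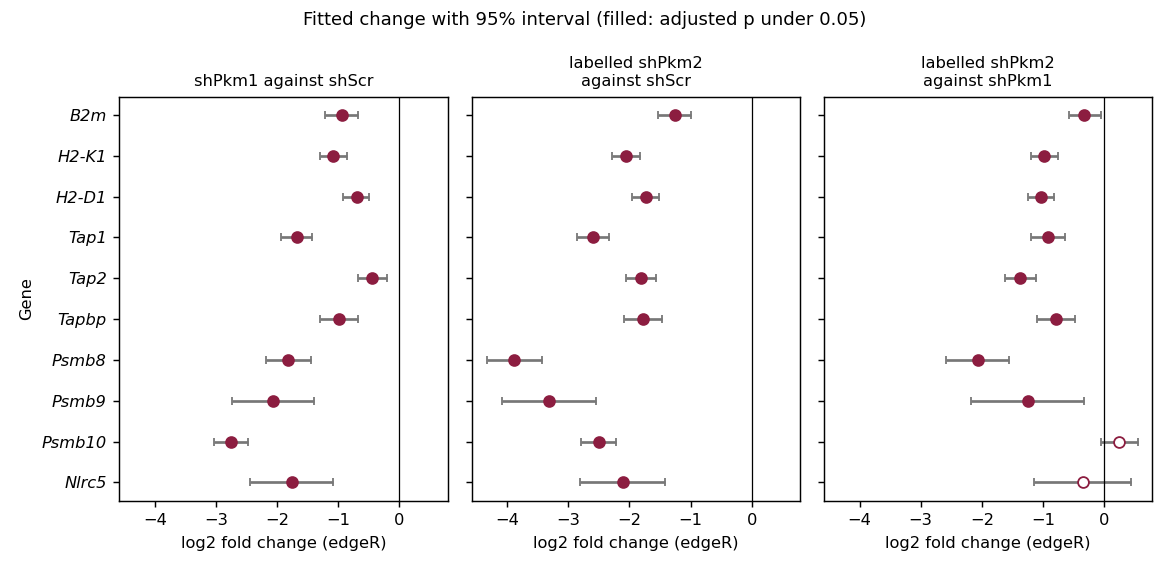
Fitted log2 fold change of each gene with its 95% interval in the 3 comparisons, from edgeR on all 6 libraries. All 10 genes lie below 0 in both comparisons with shScr, and in the direct comparison Psmb10 (0.25) and Nlrc5 (-0.35) have open symbols, with an adjusted p above 0.05.

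Of the constitutive partners, Psmb5 and Psmb7 fell in both comparisons with shScr, each with a smaller log2 change than its immunoproteasome counterpart (that difference was not tested). Psmb5 had log2 changes of -0.59 (adjusted p 0.000785) in shPkm1 and -1.11 (adjusted p 2.74e-06) in the shPkm2-labelled libraries. The call of Psmb5 in shPkm1 was lost on log2(TPM + 0.1) (-0.20, adjusted p 0.112). Psmb7 changed by -0.76 (adjusted p 2.86e-05) and -0.73 (adjusted p 3e-05). Psmb6 had a log2 fold change of 0.07 in shPkm1 (adjusted p 0.551). It was past the threshold there at 0.27 without a composition factor (adjusted p 0.0341) and at 0.46 on log2(TPM + 0.1) (adjusted p 0.00138). In the shPkm2-labelled libraries it was -0.28 (adjusted p 0.0275), which turned to 0.05 without a composition factor (adjusted p 0.692) and to 0.18 on log2(TPM + 1) (adjusted p 0.125).

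Set against its partner in the same library, each immunoproteasome subunit took a smaller share of the pair in both Pkm hairpin groups than in shScr, without overlap. The share of Psmb8 in the sum of Psmb8 and Psmb5 TPM was 4.11% and 4.29% in shScr, 1.88% and 1.79% in shPkm1 and 0.805% and 0.487% in the shPkm2-labelled libraries. That of Psmb9 with Psmb6 was 2.49% and 2.09%, then 0.542% and 0.513%, then 0.237% and 0.331%. That of Psmb10 with Psmb7 was 25.9% and 28.0% in shScr, 7.91% and 8.80% in shPkm1 and 9.21% and 9.98% in the shPkm2-labelled libraries. The Psmb10 pair thus held by far the largest immunoproteasome share, and its order between the Pkm hairpin groups was the opposite of the other pairs. No test was run on these shares; with groups of 2 libraries an exact permutation test gives no p below 0.333.

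**Figure D3:**
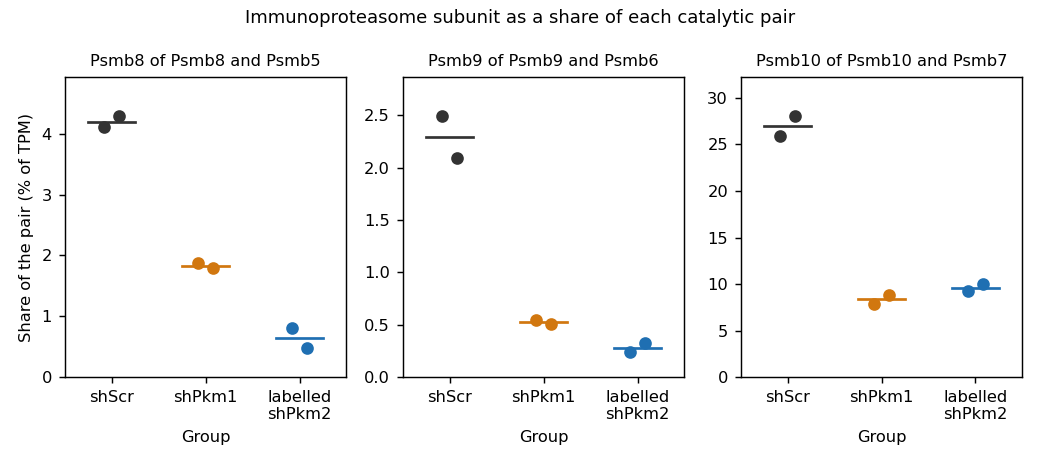
Share of the immunoproteasome subunit in each catalytic pair, in percent of the summed TPM of the pair, with 1 point per library and a bar at the group mean. Each panel has its own axis from 0: the lower control library stands at 4.11% for Psmb8, 2.09% for Psmb9 and 25.9% for Psmb10, above the other 4 libraries in each.

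The list of other proteasome genes depended on the scaling. Of the 11 remaining subunits of the 20S core, 9 were lower and 0 higher in shPkm1, with a median of -0.38 and a range from -0.79 to -0.19. Without shPkm1 replicate 1 only 4 were called lower there, and without shPkm1 replicate 2 only 5. In the shPkm2-labelled libraries, 6 were lower and 1 higher, with a median of -0.26, and without shPkm2 replicate 2 the counts were 4 lower and 0 higher. Without a composition factor the counts were 3 lower and 0 higher (median -0.18) and 1 lower and 4 higher (median 0.07), and on log2(TPM + 0.1) 1 lower and 0 higher (median 0.02) and 1 lower and 5 higher (median 0.21), so no direction of the list held under every scaling. Psmb3 fell most in both, with log2 changes of -0.79 (adjusted p 2.28e-05) and -0.89 (adjusted p 5.5e-06). Psmb4 came next in shPkm1 at -0.58 (adjusted p 0.000322) and Psmb1 in the shPkm2-labelled libraries at -0.58 (adjusted p 0.000479), and both calls were lost on log2(TPM + 0.1) (-0.19, adjusted p 0.117, and -0.13, adjusted p 0.277). The 1 subunit called higher was Psma1, at 0.36 in the shPkm2-labelled libraries (adjusted p 0.0058), a call lost without shPkm2 replicate 2 (0.31, adjusted p 0.0659). Psme1 and Psme2 encode the activator that interferon-gamma raises together with the immunoproteasome. Psme2 stood at 345 and 419 TPM in shScr, 191 and 202 in shPkm1 and 163 and 182 in the shPkm2-labelled libraries. It changed by -1.34 (adjusted p 3.58e-07) and -1.59 (adjusted p 3.58e-08), and Psme1 changed by -0.81 (adjusted p 1.41e-05) and -0.60 (adjusted p 0.000132), the latter without a call on log2(TPM + 0.1) (-0.14, adjusted p 0.236). Among 9 activator and assembly genes 5 were lower and 0 higher in shPkm1, and 5 lower and 1 higher in the shPkm2-labelled libraries. The latter, Psme4, had a log2 fold change of 0.29 (adjusted p 0.0344), which missed the threshold without shScr replicate 2 (0.14, adjusted p 0.23), without any 1 library of the other groups (adjusted p 0.0547 to 0.114) and with only the 2 groups compared (adjusted p 0.0503). Psmg3, an assembly chaperone, changed by -0.96 in the shPkm2-labelled libraries (adjusted p 2.06e-05). On log2(TPM + 0.1) these counts were 2 lower and 3 higher, and 3 lower and 2 higher.

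Peptides enter the endoplasmic reticulum through the TAP transporter, a pair of the proteins encoded by Tap1 (chr17:34187556-34197225) and Tap2 (chr17:34204479-34216321). Tap1 stood at 21.7 and 26.8 TPM in shScr, 9.69 and 9.99 in shPkm1 and 5.24 and 5.64 in the shPkm2-labelled libraries. Relative to shScr its log2 value changed in shPkm1 by -1.68 (SE 0.115, adjusted p 6.74e-08), and with the shPkm2 label by -2.60 (SE 0.122, adjusted p 7.9e-10). The direct comparison gave -0.92 (adjusted p 4.6e-05), so the groups formed steps as for the heavy chains.

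Tap2 gave a less certain result in shPkm1. In TPM the shScr libraries, at 27.7 and 32.9, overlapped with shPkm1, at 28.5 and 29.8, and it stood at 11.1 and 12.4 in the shPkm2-labelled libraries. In CPM it stood at 52.2 and 54.9 in shScr and at 37.5 and 41.4 in shPkm1, without overlap. The count model gave -0.44 in shPkm1 (SE 0.109, adjusted p 0.00331). The call was lost without a composition factor (-0.25, adjusted p 0.0803), on log2(TPM + 1) (-0.05, adjusted p 0.764) and without shPkm1 replicate 1 (-0.36, adjusted p 0.0558). In the shPkm2-labelled libraries the fall was -1.81 (SE 0.116, adjusted p 1.61e-08), and the direct comparison gave -1.37 (SE 0.116, adjusted p 4.53e-07). The ratio of Tap2 to Tap1 in TPM was 1.28 and 1.23 in shScr, 2.94 and 2.98 in shPkm1 and 2.13 and 2.20 in the shPkm2-labelled libraries.

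Tap1, Tap2, Psmb8 and Psmb9 lie together within 34292 bases of chromosome 17. Psmb9 and Tap1 are read away from each other, and their RefSeq starts lie 225 bases apart, an arrangement known as a shared promoter. Psmb9 changed by -2.06 and Tap1 by -1.68 in shPkm1, and by -3.32 and -2.60 in the shPkm2-labelled libraries. The interval holds TGACG at the position shown in capitals (chr17:34187458-34187486, plus strand, inside a GENCODE exon of Psmb9).
Psmb9 and Tap1: cccagagacaggTGACGacagagggtcct

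Tapbp (chr17:33919478-33929290) encodes tapasin, which bridges TAP and the heavy chain during loading. It stood at 123 and 202 TPM in shScr, 109 and 103 in shPkm1 and 68.4 and 60.3 in the shPkm2-labelled libraries. The control libraries differed widely, but both lay above the other 4. On the log2 scale it changed in shPkm1 by -0.99 (SE 0.143, adjusted p 5.49e-05), and with the shPkm2 label by -1.78 (SE 0.147, adjusted p 2e-07). In shPkm1 it was -1.23 without shScr replicate 1 and -0.69 without shScr replicate 2, with a call in both. Tapbpl, which encodes a related peptide editor, changed by -1.24 (adjusted p 1.88e-06) and -1.52 (adjusted p 1.78e-07).

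The general chaperones and trimming enzymes that class I loading also uses did not fall as a group. Of 9 trimming and loading genes, 1 was lower and 5 were higher in shPkm1, and 2 were lower and 4 higher in the shPkm2-labelled libraries. Shares over all genes tested were 31.4% lower and 31.8% higher, then 34.2% lower and 33.9% higher. For the 9 genes, the counts without a composition factor were 1 lower and 6 higher in each, and on log2(TPM + 0.1) 1 lower and 7 higher in each. Under these scalings 65.8% and 69.3%, then 78.1% and 75.6% of all calls were higher. Calr, the lectin chaperone calreticulin, was higher in shPkm1 (0.75, adjusted p 0.000145). No direction of Calr held under every scaling in the shPkm2-labelled libraries, with -0.15 in the count model (adjusted p 0.272), 0.17 without a composition factor (adjusted p 0.218) and 0.30 on log2(TPM + 0.1) (adjusted p 0.0378). Pdia3, a disulfide isomerase of the loading complex, was higher in both groups, by 0.55 (adjusted p 0.00075) and 0.69 (adjusted p 8.72e-05). Lnpep, which encodes an endosomal peptide-trimming enzyme, was higher by 0.87 (adjusted p 0.000102) and 1.36 (adjusted p 1.02e-06). Erap1, the trimming enzyme of the endoplasmic reticulum, had a log2 fold change of -0.18 in shPkm1 (adjusted p 0.226), which turned to 0.01 without a composition factor and 0.18 on log2(TPM + 1). In the shPkm2-labelled libraries it changed by -0.50 (adjusted p 0.00366), and the call was lost without a composition factor (-0.18, adjusted p 0.27).

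Nlrc5 (chr8:94434335-94527272) encodes the transactivator that is known to act on class I genes through X and Y box elements of their promoters. Its transcript was scarce, at 0.61 and 0.99 TPM in shScr, 0.39 and 0.22 in shPkm1 and 0.28 and 0.24 in the shPkm2-labelled libraries. Both control libraries lay above the other 4, which overlapped each other. On the log2 scale it changed in shPkm1 by -1.76 (SE 0.314, adjusted p 0.000305), and with the shPkm2 label by -2.11 (SE 0.321, adjusted p 6.02e-05). In shPkm1 the value was -2.16 without shPkm1 replicate 1 and -1.44 without shPkm1 replicate 2, with a call in both. The direct comparison gave -0.35 with a 95% interval from -1.15 to 0.44 (adjusted p 0.436), which turned to 0.04 without shPkm1 replicate 1.

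Of all genes tested, 31.4% were lower and 31.8% higher in shPkm1, and 34.2% lower and 33.9% higher in the shPkm2-labelled libraries. Of 12 transcription factors that act on class I genes, 3 were lower and 5 higher in shPkm1, and 2 were lower and 7 higher in the shPkm2-labelled libraries. These counts were 2 lower and 6 higher, then 2 lower and 9 higher, without a composition factor. On log2(TPM + 0.1) they were 1 lower and 8 higher, then 1 lower and 10 higher. Without shPkm1 replicate 1, shPkm1 had 2 lower and 3 higher. Irf1, an interferon regulatory factor, changed by -0.76 in each (adjusted p 2.63e-05 and 1.73e-05). Rfx5, a subunit of the X box factor that works with Nlrc5, was higher by 0.66 (adjusted p 0.000766) and 0.50 (adjusted p 0.00452). Rfxap, another subunit of that factor, changed by -0.55 (adjusted p 0.00375) and -0.65 (adjusted p 0.000982). Both calls of Rfxap were lost on log2(TPM + 1) (-0.16, adjusted p 0.342, and -0.18, adjusted p 0.265), and that in shPkm1 also without shPkm1 replicate 1 (-0.39, adjusted p 0.0657). Creb1, which can bind the X2 core, was higher by 0.98 (adjusted p 3.98e-05) and 1.07 (adjusted p 1.14e-05). Nfkb1, an NF-kappa B subunit, was higher by 0.26 in shPkm1 (adjusted p 0.0393) and by 0.78 in the shPkm2-labelled libraries (adjusted p 1.34e-05). Among 9 interferon receptors, kinases and Socs genes, 3 were lower and 6 higher in shPkm1, and 3 were lower and 4 higher in the shPkm2-labelled libraries. The counts for these groups, in that order, were 1 lower and 6 higher, then 3 lower and 5 higher, without a composition factor. On log2(TPM + 0.1) they were 1 lower and 6 higher, then 1 lower and 5 higher. Without shPkm1 replicate 1, shPkm1 had 1 lower and 4 higher. In the count model, the chains of the interferon-gamma receptor moved in opposite directions in both groups. Ifngr1 was higher by 1.02 (adjusted p 5.35e-06) and 0.55 (adjusted p 0.000773). Ifngr2 was lower, at -0.66 (adjusted p 5.94e-05) and -0.58 (adjusted p 0.000129). In TPM, Ifngr2 stood at 72.3 and 75.4 in shScr, 64.4 and 58.6 in shPkm1 and 68.3 and 67.4 in the shPkm2-labelled libraries. The receptor's kinase Jak2 was higher in both groups, by 1.66 (adjusted p 8.98e-08) and 1.41 (adjusted p 2.03e-07). Its partner Jak1 was also higher in both, by 0.57 (adjusted p 0.000358) and 0.67 (adjusted p 7.03e-05). Socs1, an inhibitor of these kinases, changed by -0.50 in shPkm1 (adjusted p 0.00855), a call lost without a composition factor (-0.31, adjusted p 0.0965) and without shPkm1 replicate 1 (-0.41, adjusted p 0.087), and by -0.92 with the shPkm2 label (adjusted p 9.45e-05). Tyk2, a kinase of the type I interferon receptor, changed by -0.41 in shPkm1 (adjusted p 0.00539), where its TPM values overlapped with those of shScr. With the shPkm2 label it changed by -0.72 (adjusted p 6.97e-05), without a call on log2(TPM + 0.1) (-0.30, adjusted p 0.0964).

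Of 20 other class I and class I-like heavy chain genes, 11 passed the filter on low counts. Of these, 6 were lower and 3 higher in shPkm1, and 8 were lower and 2 higher in the shPkm2-labelled libraries, with medians of -0.71 and -1.71. Without a composition factor these were 6 lower and 3 higher, then 7 lower and 3 higher (medians -0.52 and -1.39). On log2(TPM + 0.1) they were 5 lower and 3 higher, then 7 lower and 3 higher (medians -0.31 and -1.30), and on log2(TPM + 1) the medians were -0.29 and -0.81. H2-T23, which encodes the non-classical molecule Qa-1, changed by -0.96 (adjusted p 5.2e-06) and -1.77 (adjusted p 1.18e-08). H2-T22 changed by -1.84 (adjusted p 2.6e-08) and -2.39 (adjusted p 1.02e-09), and H2-T24 by -4.64 (adjusted p 1.64e-07) and -3.09 (adjusted p 6.16e-07). The H2-T24 values rest on few counts, 106 and 161 in shScr, 6 in both shPkm1 libraries and 24 and 15 in the shPkm2-labelled libraries. Counts of H2 genes are uncertain for the reasons given above. The class I-like genes that rose lie outside the H2 genes. Mr1, which presents vitamin B metabolites, was higher by 1.27 (adjusted p 6.69e-07) and 0.37 (adjusted p 0.0113). The latter call was lost without shScr replicate 1 (0.29, adjusted p 0.0521), shPkm2 replicate 1 (adjusted p 0.0578) or shPkm2 replicate 2 (adjusted p 0.053). Fcgrt, the neonatal Fc receptor that also pairs with beta-2-microglobulin, was higher in shPkm1 by 0.75 (adjusted p 0.000117). It stood at 70.1 and 95.8 TPM in shScr and overlapped with the shPkm2-labelled libraries, at 82.5 and 87.6. The count model gave -0.41 there (adjusted p 0.00843), but the value was -0.09 without a composition factor (adjusted p 0.567) and 0.05 on log2(TPM + 0.1) (adjusted p 0.742), and the call was lost without shPkm2 replicate 1 (-0.33, adjusted p 0.0959). Cd1d1, which presents lipids, was higher in the shPkm2-labelled libraries by 1.45 (adjusted p 0.00102). The control libraries held 16 and 39 counts of it, and the value was 1.02 without shScr replicate 1 and 2.14 without shScr replicate 2, with a call in both.

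**Figure D4:**
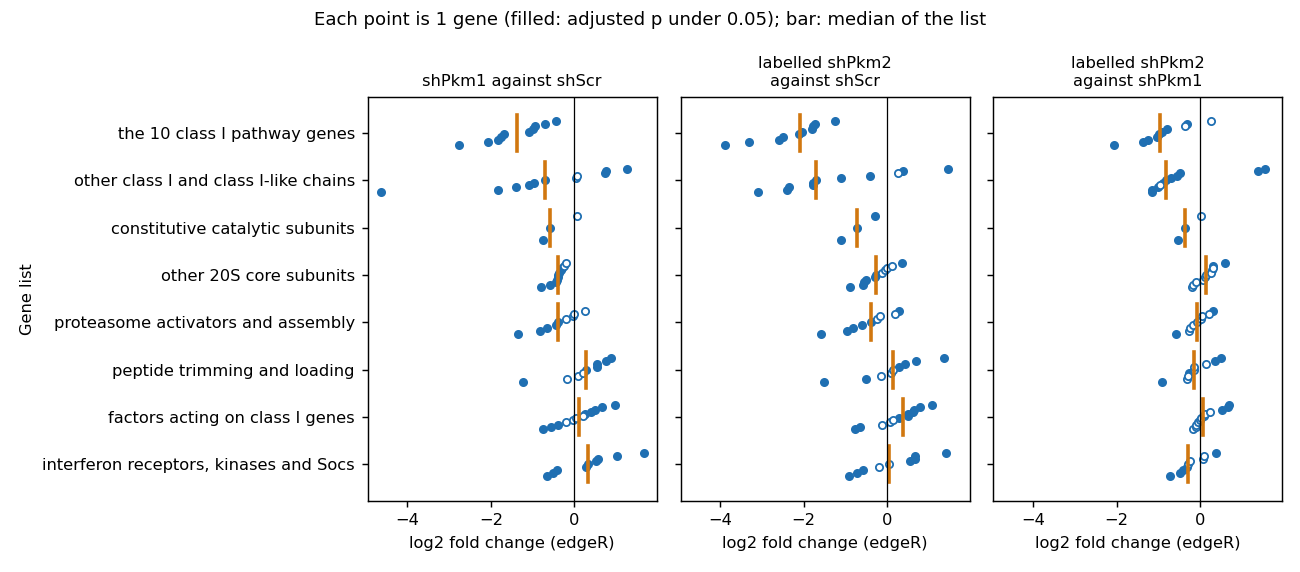
Log2 fold changes of the 10 class I pathway genes and of 7 lists of related genes, with 1 point per gene tested and a bar at the median of each list. The medians of the 10 genes are -1.38, -2.08 and -0.95 from left to right, and those of the 11 other 20S core subunits are -0.38, -0.26 and 0.15, of which both negative medians turn positive on log2(TPM + 0.1).

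Of the 10 genes, 7 lie on chromosome 17, within the 1348020 bases from the start of Tapbp to the end of H2-D1. To show whether this segment moved as a whole, the 47 other genes tested in it were counted, leaving out all H2 genes. In shPkm1, 11 of the 47 were lower and 6 higher (median -0.06), a lower share of 23.4% against 31.4% over all genes. In the shPkm2-labelled libraries, 20 were lower and 8 higher (median -0.25), a lower share of 42.6% against 34.2%. The direct comparison had 16 lower and 5 higher (median -0.13), a lower share of 34.0% against 27.3%. A fall of at least 2-fold was called for 2, 4 and 4 of the 47, against 9.41%, 13.7% and 11.5% of all genes.

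The scaling of the libraries bears on the size of every change given here. Without a composition factor the median of all genes shifted by 0.19 in shPkm1, 0.32 in the shPkm2-labelled libraries and 0.13 in the direct comparison, and calls that were higher made up 65.8%, 69.3% and 61.3% instead of 50.3%, 49.8% and 48.4%. On log2(TPM + 0.1) the shifts were 0.39, 0.45 and 0.07, with 78.1%, 75.6% and 53.2% of calls higher. Under each of these scalings all 10 genes had a log2 fold change below 0 in both comparisons with shScr. Tap2 in shPkm1 was the value nearest to 0, at -0.05.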

How the data were processed

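The deposited tables list transcripts of 6 libraries with estimated counts, FPKM and TPM, per the file headers. The submitters' processing notes name HISAT, StringTie, Bowtie, RSEM and DESeq2 and the build mm10, and versions and strand setting are not given in the sources used here. FPKM and TPM values were scaled by the authors before they were deposited, and 9 deposited columns of group means were not used.

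Transcripts were summed to genes by NCBI gene number. Genes without a matching symbol (at most 0.148% of counts) were kept under that number and filtered and tested like the others. Estimated counts were rounded and fitted in edgeR 4.0.16 (R 4.3.3, quasi-likelihood, TMM scaling) over all 6 libraries, with Benjamini-Hochberg adjustment over 12643 genes that passed filterByExpr (minimum count 10, total 15). Every adjusted p is from this fit unless another is named. Groups were taken from the titles. Totals were 18216896 to 19796036 counts per library. Alternatives were library totals, DESeq2 1.42.0 and its size factors, other filters, the 2 groups compared alone, a replicate block, each library left out, and limma 3.58.1 on log2(TPM + 1) and log2(TPM + 0.1). Fold changes on that scale understate low genes.

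Tested on simulated data for shPkm1 against shScr, the fit called 94 of 100 genes changed 2-fold, 44 of 100 changed by a log2 of 0.5, and 5 of 11910 unchanged genes. All simulated libraries were drawn around the control means with the same spread for every gene. Few genes were changed, evenly up and down. The real libraries had far more calls, a shift with scaling and a wider control pair, so these rates may not hold for them.

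The genes and lists were chosen with earlier results of these data known. Named were all 10 genes, their constitutive partners, 7 regulators and companions, up to 2 risen and 2 fallen called genes per list and contrast (mean of at least 50 counts), and the 5 genes most like the members in profile. Marker genes and companions that this rule takes only from the direct comparison are mostly given by counts alone. Promoter windows and positions are from RefSeq (GRCm38.p6), exons from GENCODE. One companion gene is not reported here and was left out of the lists.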

Additional observations from a re-analysis of the deposited data

How the results depend on the processing

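Over the alternatives, 144 of 148 values of the 10 genes in shPkm1 against shScr and 148 of 148 in the libraries labelled shPkm2 kept their direction and side of the threshold, and 135 of 148 did in the direct comparison. The number of the 10 genes past the threshold was 8 to 10 in each comparison with shScr, the 8 where a mean of at least 50 counts left only 8 genes tested. In the direct comparison it was 6 to 8. Replicate numbers did not pair the libraries (r of same-numbered deviations -0.0256 to 0.0527 over 12643 genes), and with the replicate block the direct comparison had 7 called, B2m being lost (adjusted p 0.0608).

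Besides those of Calr, Fcgrt, H2-M3 and Cd74 given elsewhere, some small values changed sign, and the cause was not tested. Without a composition factor these were Erap1 in shPkm1 (0.01), Psmb6 in the libraries labelled shPkm2 (0.05) and, in the direct comparison, Irf1 (0.13). On log2(TPM + 1) and log2(TPM + 0.1) they were Erap1 (0.18 and 0.20), Psmb6 (0.18 in both) and Irf1 (0.06 in both). With a library left out, Psmb6 in shPkm1 ranged from -0.02 to 0.17, and in the direct comparison Nlrc5 from -0.68 to 0.04, Psmb7 from -0.06 to 0.12 with -0.04 between, and Irf1 turned to 0.00 and 0.03. From estimated counts in place of TPM, which removes the scaling to length, the share of Psmb8 in its pair was 5.95%, 2.62% and 0.928% in shScr, shPkm1 and the libraries labelled shPkm2. That of Psmb9 was 1.79% and 0.412% in shScr and shPkm1, and that of Psmb10 was 34.0%, 11.4% and 13.1%. With the minimum of 50 counts, the median over the 8 genes left was -1.02 in shPkm1 and -1.93 with the shPkm2 label. Low counts limit Psmb9 and Nlrc5, and 2 libraries per group limit every comparison.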

Other observations

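Genes of MHC class II, the molecules that antigen-presenting cells use for proteins taken up from outside, were mostly at very few counts. Of 8 class II genes analysed, 5 had at most 3 counts in every library, among them H2-Ab1 and H2-Eb1 at 0. Cd74 and H2-DMa passed the filter on low counts. Cd74, the invariant chain, stood at 5.51 and 10.05 TPM in shScr, 20.9 and 20.48 in shPkm1 and 7.16 and 8.44 in the libraries labelled shPkm2. By edgeR it was higher in shPkm1 than in shScr by 1.02 (adjusted p 0.000618). The libraries labelled shPkm2 gave -0.43 against shScr (adjusted p 0.0912), which turned to 0.06 on log2(TPM + 0.1). It was called at -0.73 without shScr replicate 1 (adjusted p 0.000742) and stood at -0.04 without shScr replicate 2 (adjusted p 0.888). Against shPkm1 the value was -1.46 (adjusted p 4.43e-05). Of 11 interferon ligands 5 were in the deposited data, and none of these passed the filter. Ifng had 0 and 15 counts in shScr, 3 and 0 in shPkm1 and 1 in both libraries labelled shPkm2, and its part in the results was not tested.

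The 5 genes outside all lists whose log2 CPM over the 6 libraries was most like the mean profile of the 10 class I genes were Myorg, Ube2g2, Rtn2, Akt2 and Cacng1, out of 10614 candidates. Their root mean square difference from that profile was 0.08 to 0.119 on the log2 scale. Myorg stood at 48.9 and 49.5 TPM in shScr, 23.3 and 23.4 in shPkm1 and 14.1 and 14.2 in the libraries labelled shPkm2. Of the 10 genes themselves, H2-K1 lay nearest to the mean profile, at 0.135, and Psmb8 farthest, at 0.67.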
